A study of Mus musculus with 7 samples.

Results

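The 8 genes described here form a core of the interleukin-1 (IL-1) and tumour necrosis factor (TNF) axis: Il1a, Il1b, Il1rn, Tnf, Nlrp3, Casp1, Tnfrsf1a and Tnfrsf1b. They were chosen by symbol, each had 1 row among the 24537 genes of the deposited expression table, and all 8 were among the 13028 genes tested. RNA had been sequenced from microglia of C57BL/6 mice bearing 005 glioma, a mouse glioblastoma model, at day 35 after tumour implantation. Cells were sorted by flow cytometry as CD45-intermediate and CX3CR1-positive. The first group received CD4 depletion + anti-CTLA4, an antibody against a T cell checkpoint receptor given together with removal of CD4 T cells (n = 3). The second was labelled anti-CTLA4, the checkpoint antibody without depletion (n = 2), and the third received IgG, the control antibody (n = 2). All 3 groups carried the tumour, no tumour-free or untreated library was analysed here, and the labels do not give the age of the mice or whether cells of several mice were pooled.

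IL-1 alpha and IL-1 beta are cytokines that act on the same IL-1 receptor, and the IL-1 receptor antagonist occupies that receptor without triggering a signal. IL-1 beta is made as an inactive precursor and is cut by caspase-1 once an inflammasome such as the one built on NLRP3 has assembled. TNF signals through TNFR1, which is present on most cells and can couple to NF-kappaB or to cell death, and through TNFR2, which is more restricted to immune and endothelial cells. In the brain, microglia are a main source of IL-1 and TNF, and their transcripts are rapidly induced when these cells are stimulated or handled.

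Depth, implied by the steps between low values, was 84200000 to 108000000 reads per library, and 11348 to 12401 genes reached 1 FPKM (fragments scaled to transcript length and library depth). The fewest implied reads among the 8 genes were those of Il1b in IgG replicate 1, about 170, so counting error was small beside the spread between libraries. The anti-CTLA4 columns bear the sheet numbers 29 and 30, which the header of the same table assigns to libraries named MIFNGRKO1 and MIFNGRKO2. The sample descriptions give the anti-CTLA4 names with other sheet numbers. These columns are therefore called the libraries labelled anti-CTLA4, and every direction that uses them rests on the column names. Markers of homeostatic microglia were present in all 7 libraries: Tmem119, a microglial surface protein, ranged from 243 FPKM in CD4 depletion + anti-CTLA4 replicate 1 to 1001 FPKM in labelled anti-CTLA4 replicate 2. That depletion replicate stood apart, with the lowest homeostatic sum and the highest monocyte sum of the 7 libraries, and the values of Il1b, Il1rn, Tnf and Nlrp3 are also given without it. The labels do not say that the libraries of a group came from separate animals, so each p-value reflects the spread among libraries, part of which may be technical.

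The starts of these genes are shown because the 2 IL-1 cytokines and Tnf share a feature there that the antagonist and the TNFR2 gene lack. The sequences are the 250 bases before the RefSeq start site on build GRCm38.p6, which is mm10, written 5′ to 3′ on the strand of the gene. Capitals mark 3 motifs, each searched on both strands. The TATA box was searched as TATAAA. The AP-1 site, bound by the FOS and JUN families, was searched as TGANTCA. The core of the PU.1 site, bound by the myeloid factor PU.1, was searched as GAGGAA. On the other strand that core reads TTCCTC, as in Tnf. No motif overlaps another in these windows. Il1a is on the minus strand, and its window is chr2:129309973-129310222. Il1b is on the minus strand at chr2:129371140-129371389. Tnf is on the minus strand at chr17:35202008-35202257. Il1rn is on the plus strand at chr2:24345121-24345370, before the 1 of its 3 RefSeq starts that matches the deposited row. Tnfrsf1b is on the minus strand at chr4:145246871-145247120.
Il1a: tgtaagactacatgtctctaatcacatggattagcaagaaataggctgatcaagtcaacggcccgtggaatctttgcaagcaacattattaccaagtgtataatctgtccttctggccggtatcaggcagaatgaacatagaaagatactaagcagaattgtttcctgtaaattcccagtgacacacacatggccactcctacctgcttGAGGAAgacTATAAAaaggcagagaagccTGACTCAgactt
Il1b: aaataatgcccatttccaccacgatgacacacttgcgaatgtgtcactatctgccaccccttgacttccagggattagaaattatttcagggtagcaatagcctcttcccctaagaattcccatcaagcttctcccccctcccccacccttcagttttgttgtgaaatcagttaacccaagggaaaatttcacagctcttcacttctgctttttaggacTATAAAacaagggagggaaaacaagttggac
Tnf: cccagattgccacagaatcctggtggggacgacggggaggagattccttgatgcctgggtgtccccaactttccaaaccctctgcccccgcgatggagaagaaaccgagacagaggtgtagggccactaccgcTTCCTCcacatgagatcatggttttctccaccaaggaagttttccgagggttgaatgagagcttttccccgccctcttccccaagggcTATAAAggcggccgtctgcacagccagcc
Il1rn: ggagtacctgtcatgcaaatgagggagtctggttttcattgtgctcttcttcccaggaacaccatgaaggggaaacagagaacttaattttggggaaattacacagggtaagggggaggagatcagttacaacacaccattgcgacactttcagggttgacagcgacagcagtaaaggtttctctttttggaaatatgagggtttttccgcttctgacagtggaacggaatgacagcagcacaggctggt
Tnfrsf1b: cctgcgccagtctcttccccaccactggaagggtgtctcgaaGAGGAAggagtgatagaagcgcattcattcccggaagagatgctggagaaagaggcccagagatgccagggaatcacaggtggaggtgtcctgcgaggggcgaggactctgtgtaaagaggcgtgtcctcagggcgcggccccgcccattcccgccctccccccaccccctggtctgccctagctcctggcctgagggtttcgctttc
TATAAA was present in 3 of the 8 windows, at position -32 in Il1a, -31 in Il1b and -29 in Tnf counted from the start site, and in 12.4% of 32851 RefSeq promoter windows of the same length. TGANTCA was present only in Il1a, at -12, against 6.75% of all windows. GAGGAA was present in 5 of 8, those of Il1a, Tnf, Nlrp3, Casp1 and Tnfrsf1b, against 23.3% of all windows. The kappaB consensus was in 0 of 8 windows and in 3.9% of all. These matches describe letters only.

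The table's coordinates on mm10 place Il1a at chr2:129299610-129309972 and Il1b at chr2:129364578-129371139, both on the minus strand of chromosome 2, with Il1rn on the plus strand of the same chromosome at chr2:24345371-24351491. Tnf lies at chr17:35199367-35202007, Nlrp3 at chr11:59542686-59566956, Casp1 at chr9:5298517-5307281, Tnfrsf1a at chr6:125349723-125362483 and Tnfrsf1b at chr4:145212368-145246870. Gm14023, a predicted gene on the opposite strand, shares 8217 bases of its span with Il1a, and its level was 6.60, 4.62 and 9.38 FPKM in the depletion libraries, 29.2 and 30.2 FPKM in the libraries labelled anti-CTLA4, and 2.30 and 13.5 FPKM in IgG. Reads on both strands were counted, so Il1a and Gm14023 cannot be told apart where they overlap. Il1bos, the opposite-strand row that shares 1238 bases with Il1b, was at 1.37 FPKM or less in every library.

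Ordered by their median level over the 7 libraries, the genes ran from Il1b (77.9 FPKM) through Tnfrsf1a (58.1), Il1a (50.2), Tnfrsf1b (30.4), Casp1 (29.5), Tnf (15.5) and Il1rn (4.40) to Nlrp3 (4.06 FPKM). Every pair of neighbours in this order had overlapping ranges over the 7 libraries, and Il1b held the first place in only 3 of them. The range between the lowest and the highest library differed widely among the genes. On the log2(FPKM + 1) scale it was 7.32 for Il1b, larger than in 99.97% of tested genes, and 3.45 to 3.61 for Il1a, Il1rn and Tnf. It was 1.31 to 1.68 for Nlrp3, Casp1 and Tnfrsf1b, and 0.35 for Tnfrsf1a, where only 4.13% of tested genes had a smaller range. The median tested gene had a range of 0.97.

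**Figure D1:**
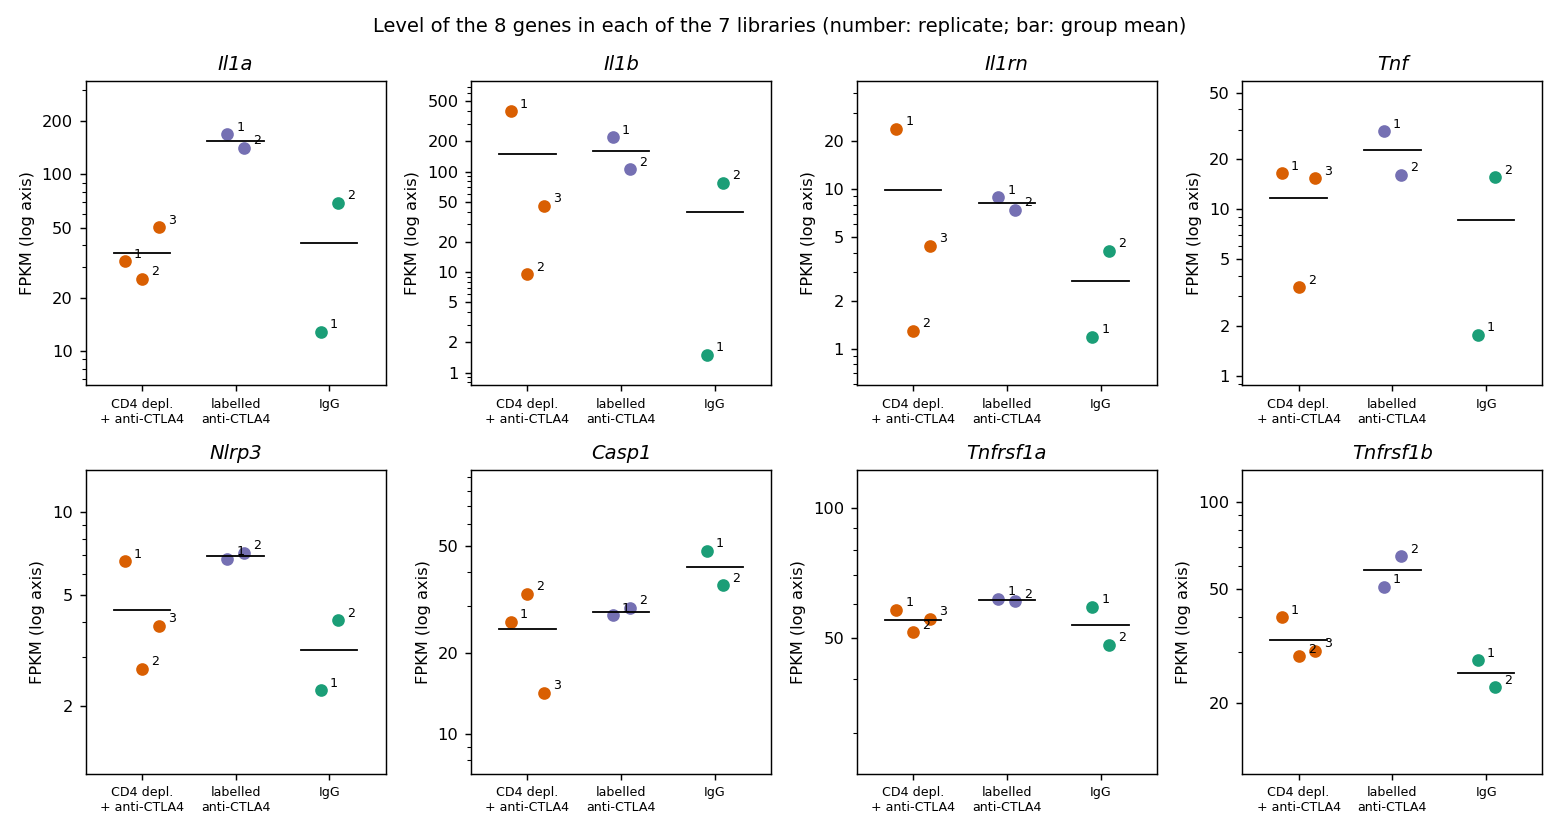
Level of each gene in FPKM (log axis) in every library, by group, with the replicate number beside each point and a bar at the group mean. Il1b spanned 1.502 to 399 FPKM and did not overlap between labelled anti-CTLA4 and IgG, while Tnfrsf1a stayed between 48.1 and 61.6 FPKM.

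Il1a, the IL-1 cytokine that is active without caspase-1 cleavage, was at 32.3, 25.7 and 50.2 FPKM in the 3 CD4 depletion + anti-CTLA4 libraries, 169 and 142 FPKM in the libraries labelled anti-CTLA4, and 12.9 and 69.4 FPKM in IgG. Both libraries labelled anti-CTLA4 lay above all others, and the depletion libraries lay between the 2 IgG libraries. The group means were 36.1 ± 12.7 FPKM under depletion (SD, n = 3), 155 ± 18.9 FPKM in the labelled anti-CTLA4 group (SD, n = 2) and 41.2 ± 40.0 FPKM in IgG (SD, n = 2). Il1a fell under depletion relative to the libraries labelled anti-CTLA4, by 2.12 on the log2 scale (SE 0.62, limma adjusted p = 0.0399), and rose in those libraries relative to IgG, by 2.31 on the log2 scale (SE 0.67, limma adjusted p = 0.0331). Fold changes here and below are differences of mean log2(FPKM + 1). In bulk RNA, fewer cells of a type and less RNA per cell cannot be told apart.

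Il1b, the cytokine whose precursor caspase-1 cuts, was at 399, 9.51 and 45.9 FPKM in the depletion libraries, 219 and 105 FPKM in the libraries labelled anti-CTLA4, and 1.502 and 77.9 FPKM in IgG. Depletion replicate 1 was the highest of the 7 libraries and IgG replicate 1 the lowest, with 266-fold between them. Both libraries labelled anti-CTLA4 lay above both IgG libraries and between the first and the other depletion replicates. The means were 151 ± 215 FPKM under depletion (SD, n = 3), 162 ± 80.4 FPKM in the labelled anti-CTLA4 group (SD, n = 2) and 39.7 ± 54.0 FPKM in IgG (SD, n = 2). No comparison passed: the log2 fold change was -1.39 for depletion against labelled anti-CTLA4 (SE 1.75, limma adjusted p = 0.559) and 3.44 for labelled anti-CTLA4 against IgG (SE 1.91, limma adjusted p = 0.185). Single libraries decided the first of these, which was -2.78 without depletion replicate 1 (limma adjusted p = 0.165), -0.16 without depletion replicate 2 (0.953) and -0.87 without labelled anti-CTLA4 replicate 1 (0.813). After scaling to the homeostatic microglia list, the value for labelled anti-CTLA4 against IgG was 2.49 and passed (limma adjusted p = 0.0329). It passed in only 1 of 16 alternatives, and that scaling moved the median of all tested genes to -1.26.

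The balance of the 2 cytokines overlapped between the groups. The ratio of Il1a to Il1b was 0.0810, 2.70 and 1.09 in the depletion libraries, 0.771 and 1.35 in the libraries labelled anti-CTLA4, and 8.59 and 0.891 in IgG. Il1b was thus the more abundant transcript in 3 of 7 libraries and Il1a in 4.

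Il1rn, which encodes the IL-1 receptor antagonist, was at 23.8, 1.30 and 4.40 FPKM in the depletion libraries, 8.88 and 7.44 FPKM in the libraries labelled anti-CTLA4, and 1.18 and 4.10 FPKM in IgG. Its highest and lowest libraries were those of Il1b, depletion replicate 1 and IgG replicate 1, and only the libraries labelled anti-CTLA4 and IgG did not overlap. The log2 fold change was -0.44 for depletion against labelled anti-CTLA4 (SE 0.89, limma adjusted p = 0.725) and 1.45 for labelled anti-CTLA4 against IgG (SE 0.98, limma adjusted p = 0.263). Without depletion replicate 1 the first became -1.38 (limma adjusted p = 0.0603), and the second, at the same 1.45, passed (limma adjusted p = 0.0461), while without depletion replicate 2 the first was 0.34. Antagonist transcript was well below cytokine transcript in 6 libraries: the ratio of Il1rn to Il1b was 0.0597, 0.136 and 0.0959 in the depletion libraries, 0.0406 and 0.0708 in the libraries labelled anti-CTLA4, and 0.786 and 0.0526 in IgG. The IgG library with the high ratio was replicate 1, in which both transcripts were at their lowest.

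Tnf, the founding cytokine of the TNF family, was at 16.4, 3.39 and 15.3 FPKM in the depletion libraries, 29.3 and 16.0 FPKM in the libraries labelled anti-CTLA4, and 1.77 and 15.5 FPKM in IgG. Depletion replicates 1 and 3, labelled anti-CTLA4 replicate 2 and IgG replicate 2 lay within 15.3 to 16.4 FPKM, so that libraries of all 3 groups met at 1 level. The highest value was labelled anti-CTLA4 replicate 1, and depletion replicate 2 and IgG replicate 1 were far below. The log2 fold change was -1.08 for depletion against labelled anti-CTLA4 (SE 0.84, limma adjusted p = 0.349) and 1.75 for labelled anti-CTLA4 against IgG (SE 0.93, limma adjusted p = 0.166). The first was -1.42 without depletion replicate 1, -0.43 without depletion replicate 2 and -0.66 without labelled anti-CTLA4 replicate 1, and none of these passed (limma adjusted p = 0.230, 0.705 and 0.697).

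Nlrp3, the sensor of the inflammasome that activates caspase-1, was at 6.65, 2.71 and 3.88 FPKM in the depletion libraries, 6.79 and 7.11 FPKM in the libraries labelled anti-CTLA4, and 2.27 and 4.06 FPKM in IgG. Both libraries labelled anti-CTLA4 lay above all others, depletion replicate 1 only just below them. The log2 fold change was -0.62 for depletion against labelled anti-CTLA4 (SE 0.33, limma adjusted p = 0.178) and 0.97 for labelled anti-CTLA4 against IgG (SE 0.36, limma adjusted p = 0.0673). Without depletion replicate 1 these became -0.90 (limma adjusted p = 0.029) and 0.97 (limma adjusted p = 0.0201), both past the threshold. Over the 16 alternatives the first passed in 1 and the second in 4. After scaling to the homeostatic list they were 0.32 and 0.015, beside all-gene medians of 1.21 and -1.26.

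Casp1, the protease that cuts the IL-1 beta precursor, was the 1 gene of the 8 whose highest group was IgG. It was at 26.1, 33.1 and 14.3 FPKM in the depletion libraries, 27.6 and 29.5 FPKM in the libraries labelled anti-CTLA4, and 47.9 and 35.6 FPKM in IgG. Both IgG libraries were above all 5 others, and IgG replicate 1, which held the lowest Il1a, Il1b, Il1rn, Tnf and Nlrp3, held the highest Casp1. The means were 24.5 ± 9.51 FPKM under depletion (SD, n = 3), 28.5 ± 1.33 FPKM in the labelled anti-CTLA4 group (SD, n = 2) and 41.8 ± 8.66 FPKM in IgG (SD, n = 2). The difference passed in no comparison. The log2 fold change was -0.29 for depletion against labelled anti-CTLA4 (SE 0.32, limma adjusted p = 0.512), which was 0.042 without depletion replicate 3. It was -0.52 for labelled anti-CTLA4 against IgG (SE 0.36, limma adjusted p = 0.271) and -0.81 for depletion against IgG (SE 0.32, limma adjusted p = 0.710). After scaling to the homeostatic list, the value for labelled anti-CTLA4 against IgG was -1.47 and passed (limma adjusted p = 0.00931). That scaling moved the median of all tested genes to -1.26, and Casp1 stood at only -0.21 relative to it.

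Tnfrsf1a, which encodes the death-domain receptor TNFR1, was at 58.1, 51.5 and 55.4 FPKM in the depletion libraries, 61.6 and 60.7 FPKM in the libraries labelled anti-CTLA4, and 59.0 and 48.1 FPKM in IgG. Its highest library was only 1.28-fold above its lowest, although both libraries labelled anti-CTLA4 were above the rest. The log2 fold change was -0.15 for depletion against labelled anti-CTLA4 (SE 0.15, limma adjusted p = 0.444) and 0.19 for labelled anti-CTLA4 against IgG (SE 0.16, limma adjusted p = 0.358).

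Tnfrsf1b, which encodes TNFR2, a receptor without a death domain, was at 39.8, 29.1 and 30.4 FPKM in the depletion libraries, 50.9 and 64.9 FPKM in the libraries labelled anti-CTLA4, and 28.1 and 22.7 FPKM in IgG. The 3 groups did not overlap. The means were 33.1 ± 5.85 FPKM under depletion (SD, n = 3), 57.9 ± 9.96 FPKM in the labelled anti-CTLA4 group (SD, n = 2) and 25.4 ± 3.85 FPKM in IgG (SD, n = 2). Tnfrsf1b fell under depletion relative to the libraries labelled anti-CTLA4, by 0.79 on the log2 scale (SE 0.20, limma adjusted p = 0.0270), and it rose in those libraries relative to IgG, by 1.15 (SE 0.22, limma adjusted p = 0.0114). After scaling every library to the homeostatic microglia list, the first value turned to 0.15 and the second was 0.20, and neither passed. The medians of all tested genes were then 1.21 and -1.26.

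The proportion of the 2 TNF receptors moved with Tnfrsf1b. The ratio of Tnfrsf1b to Tnfrsf1a was 0.686, 0.566 and 0.549 in the depletion libraries, 0.826 and 1.07 in the libraries labelled anti-CTLA4, and 0.477 and 0.472 in IgG. The groups did not overlap in this ratio, which a scaling factor for a whole library leaves as it is, and TNFR2 transcript exceeded TNFR1 transcript only in labelled anti-CTLA4 replicate 2. With 3 libraries against 2, an exact two-sided permutation test cannot go below p = 0.2, and with 2 against 2 not below 0.333, so none is given.

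With CD4 depletion + anti-CTLA4 set against the libraries labelled anti-CTLA4, the comparison that asks what removal of CD4 T cells does under checkpoint blockade, Il1a and Tnfrsf1b were lower and the other 6 genes did not pass. Of all tested genes, 29.4% passed, which divides into 22.8% higher and 6.59% lower, and 45.3% had an unadjusted p below 0.05. Of the 8 genes, 0 passed as higher and 2 as lower. In 4 of them, Il1a, Nlrp3, Tnfrsf1a and Tnfrsf1b, every depletion library was below both labelled anti-CTLA4 libraries, an arrangement found in 15.7% of tested genes. The opposite arrangement was found in 44.7%, and 60.5% did not overlap in either direction. The median log2 fold change was -0.71 over the 8 genes and 0.27 over all tested genes. The call of Il1a was lost without depletion replicate 2 (limma adjusted p = 0.106), depletion replicate 3 (0.0701), labelled anti-CTLA4 replicate 1 (0.140) or labelled anti-CTLA4 replicate 2 (0.181), and with no filter on low genes (0.0863). That of Tnfrsf1b was lost without depletion replicate 2 (limma adjusted p = 0.0772), depletion replicate 3 (0.0812) or labelled anti-CTLA4 replicate 2 (0.185). Without labelled anti-CTLA4 replicate 2, 0 of all tested genes passed, against 3827 with it.

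With the libraries labelled anti-CTLA4 set against IgG, the comparison that asks what the checkpoint antibody alone does, Il1a and Tnfrsf1b were higher and the other 6 genes did not pass. The shares of all tested genes that passed were 38% in either direction, 9.29% higher and 28.8% lower, and 50.2% had an unadjusted p below 0.05. All 8 genes were without overlap between these groups, 7 higher and 1, Casp1, lower, where 76.9% of tested genes did not overlap, 22.8% being higher and 54.1% lower. The median log2 fold change was 1.30 over the 8 genes and -0.31 over all tested genes. IgG replicate 1 set much of the size: without it the value for Il1a was 1.15 against 2.31 with it, that for Il1b 0.95 against 3.44, and that for Tnf 0.46 against 1.75. The call of Il1a was lost without IgG replicate 1 (limma adjusted p = 0.0918), labelled anti-CTLA4 replicate 1 (0.116) or replicate 2 (0.126), and with no filter on low genes (0.0729). That of Tnfrsf1b was lost without IgG replicate 1 (limma adjusted p = 0.0576), IgG replicate 2 (0.0629) or labelled anti-CTLA4 replicate 2 (0.0773). Without IgG replicate 1, and likewise without labelled anti-CTLA4 replicate 2, 0 of all tested genes passed, against 4957 with all libraries.

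With CD4 depletion + anti-CTLA4 set against IgG, none of the 8 genes passed, and 0% of all tested genes did. The smallest limma adjusted p over all genes was 0.315, while 6.53% of genes had an unadjusted p below 0.05, Casp1 among the 8 genes (unadjusted p = 0.0398). Tnfrsf1b was higher without overlap, as were 11% of tested genes, and Casp1 lower without overlap, as were 16.2%, with 27.2% in either direction. The log2 fold change was 0.36 for Tnfrsf1b, 0.35 for Nlrp3, 0.19 for Il1a and 0.042 for Tnfrsf1a. It was 2.05 for Il1b, 1.02 for Il1rn and 0.67 for Tnf, and without IgG replicate 1 it was -0.44 for Il1b, 0.40 for Il1rn and -0.62 for Tnf. Without depletion replicate 1 it was 0.66 for Il1b, 0.078 for Il1rn and 0.33 for Tnf. The 3 comparisons share libraries in pairs, so their values are not independent of each other.

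**Figure D2:**
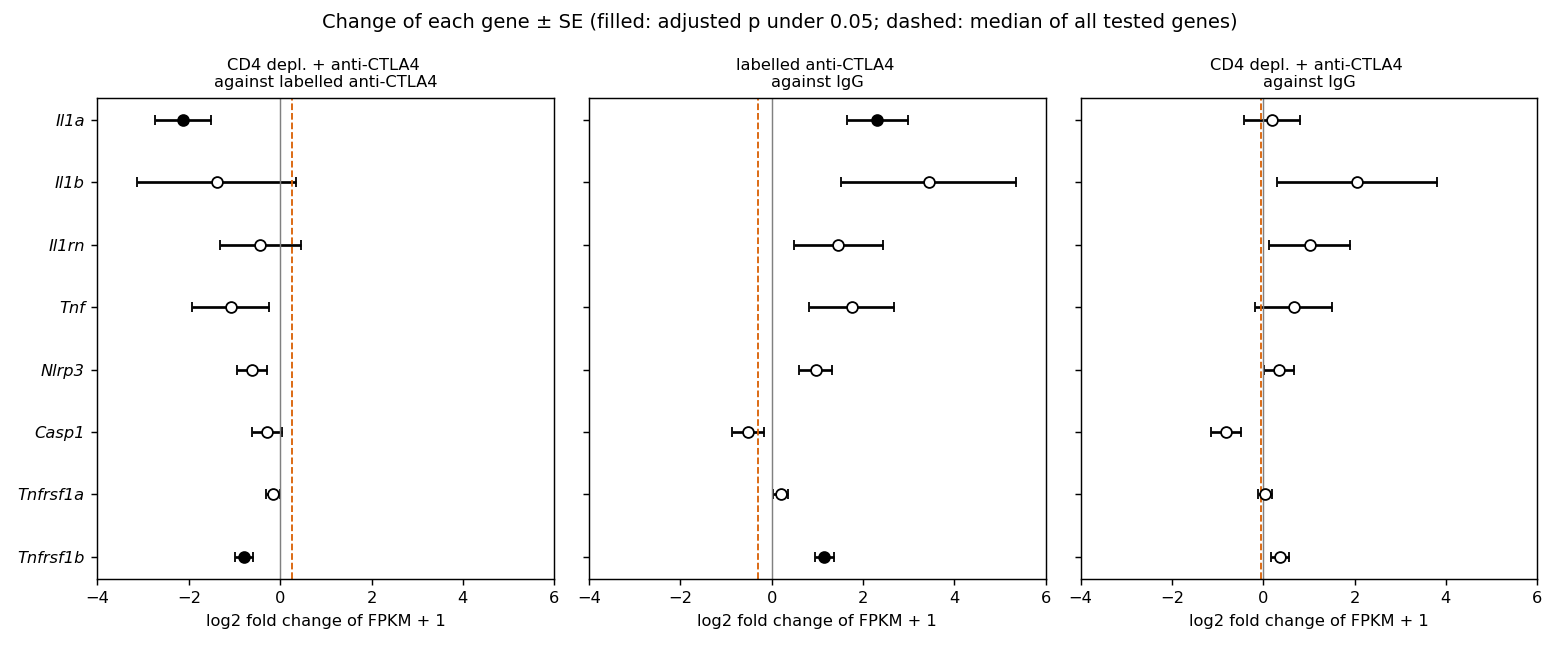
Log2 fold change of FPKM + 1 for each gene (horizontal axis) in the 3 comparisons, with bars of 1 SE, filled where limma's adjusted p was under 0.05 and with a dashed line at the median of all tested genes. Il1a and Tnfrsf1b are filled in the first pair of panels, at -2.12 and -0.79 and at 2.31 and 1.15, and Il1b has the widest error bar in each panel.

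The scaling of the libraries moved the baseline of all genes. The median log2 fold change of all tested genes was 0.27 for depletion against labelled anti-CTLA4 as deposited, 0.0093 after median-of-ratios scaling and 1.21 after scaling to the homeostatic list. For labelled anti-CTLA4 against IgG it was -0.31, -0.0096 and -1.26 under the same 3 scalings. Scaling to the homeostatic list shifts every gene of a library by 1 constant on the log2 scale. By construction, a gene's distance from the median is therefore the same as deposited and after that scaling. Median-of-ratios scaling is close to such a shift, so the likeness of the values below is no test of the genes. Relative to the median of all tested genes, Il1a stood at -2.39, -2.45 and -2.39 in the first comparison and at 2.62, 2.69 and 2.62 in the second. Tnfrsf1b stood at -1.06, -1.11 and -1.06 in the first and at 1.46, 1.53 and 1.46 in the second. Nlrp3 stood at -0.89, -0.90 and -0.89 in the first and at 1.27, 1.28 and 1.27 in the second, while Casp1 stood at -0.56, -0.60 and -0.56 and at -0.21, -0.15 and -0.21.

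**Figure D3:**
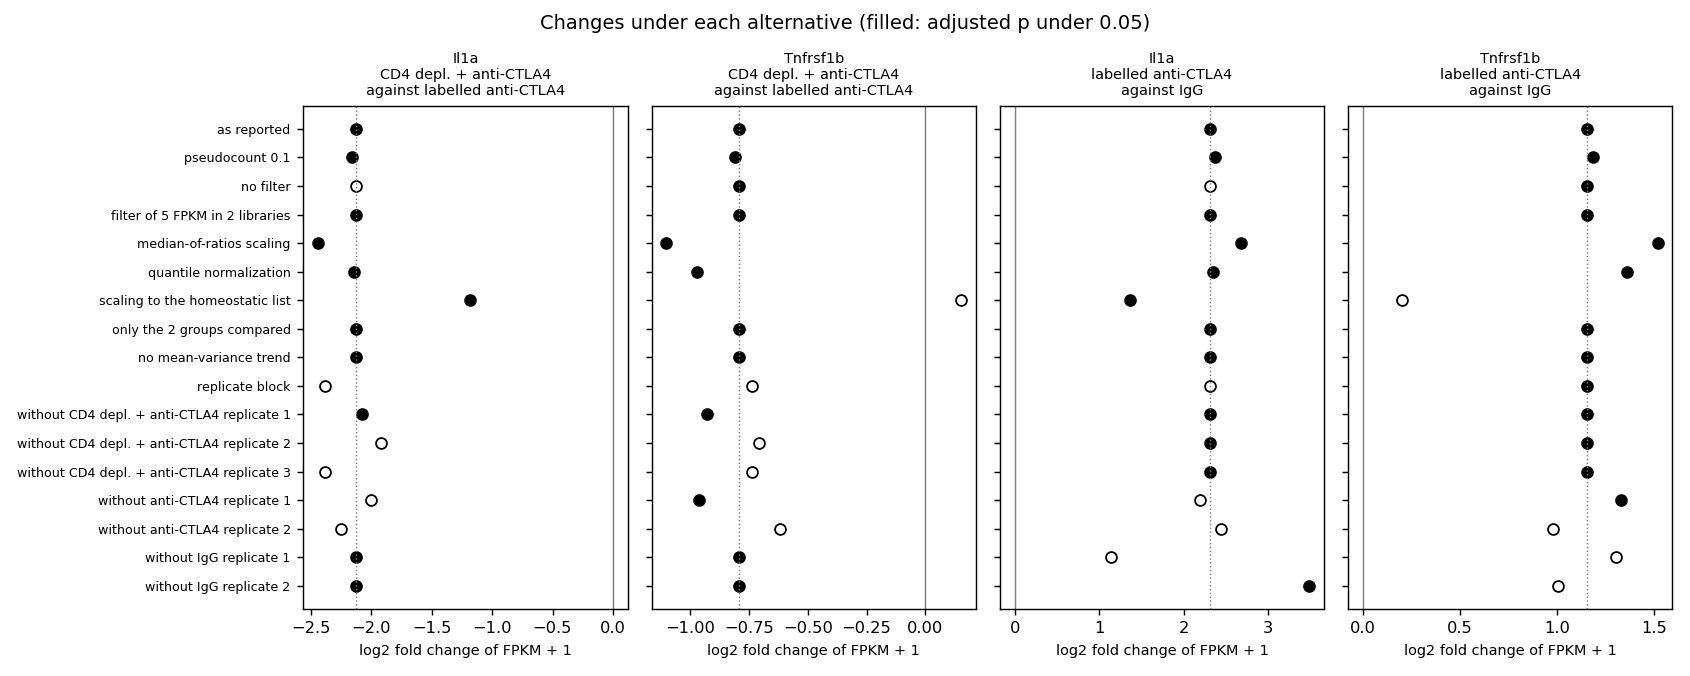
Log2 fold change of FPKM + 1 (horizontal axis) of Il1a and Tnfrsf1b in the comparisons they passed, as reported and under 16 alternatives (rows), filled where limma's adjusted p was under 0.05, with a dotted line at the reported value. Il1a kept its sign in every row, from -2.44 to -1.18 and from 1.15 to 3.48, and Tnfrsf1b crossed 0 only for depletion against labelled anti-CTLA4 after scaling to the homeostatic list, at 0.15.

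Among 24 other genes of the IL-1 family and its signalling, 19 were tested. Set against the labelled anti-CTLA4 libraries, 2 were higher and 2 lower under depletion, with a list median of -0.027 that was 0.92 after scaling to the homeostatic list. Over all tested genes, 22.8% were higher and 6.59% lower in that comparison, with a median of 0.27 that was 1.21 after that scaling. Il18bp, the secreted decoy that binds IL-18, fell to 6.85 ± 2.39 FPKM under depletion (SD, n = 3), against 39.1 ± 6.33 FPKM in the libraries labelled anti-CTLA4 (SD, n = 2), which was a fold change of -2.39 on the log2 scale (SE 0.26, limma adjusted p = 0.0109). Irak2, a kinase-like adaptor of the IL-1 receptor, fell by 0.79 on the log2 scale. After scaling to the homeostatic list it was at 0.15, below the all-gene median of 1.21, and did not pass (limma adjusted p = 0.741). Il1rap, the accessory chain that the IL-1 receptor needs to signal, rose by 1.11 to 11.4 ± 3.32 FPKM under depletion (SD, n = 3), against 4.69 ± 1.24 FPKM in the libraries labelled anti-CTLA4 (SD, n = 2). Il33, an IL-1 family cytokine released from damaged cells, rose by 1.45, but after median-of-ratios scaling it was at 1.17 and did not pass (limma adjusted p = 0.0534).

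In the libraries labelled anti-CTLA4 against IgG, 3 genes of that list were higher and 3 lower, with a list median of 0.066 that was -0.89 after the same scaling. Over all tested genes, 9.29% were higher and 28.8% lower there, with a median of -0.31 that was -1.26 after that scaling. Il18bp was 1.34 higher on the log2 scale and Irak2 1.19 higher, whereas Il1rap was 1.26 lower and Tab1, an adaptor of the kinase TAK1, 0.67 lower. After median-of-ratios scaling Tab1 was at -0.34 and did not pass (limma adjusted p = 0.149). After scaling to the homeostatic list Il18bp was at 0.39 and Irak2 at 0.24, and neither passed (limma adjusted p = 0.45 and 0.647). Il1r1, which encodes the signalling IL-1 receptor, was at 4.17, 2.07 and 2.19 FPKM in the depletion libraries, 2.10 and 1.37 FPKM in the libraries labelled anti-CTLA4, and 2.16 and 1.42 FPKM in IgG, so the receptor's own transcript was scarce in all 7 libraries.

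Of 20 other inflammasome and pyroptosis genes, 16 were tested, and under depletion 0 were higher and 7 lower relative to labelled anti-CTLA4, with a list median of -0.70. The shares of all tested genes were 22.8% higher and 6.59% lower, with a median of 0.27. Gsdmd, the pore-forming protein that caspase-1 cleaves, fell to 33.5 ± 4.97 FPKM under depletion (SD, n = 3), against 72.5 ± 4.51 FPKM in the libraries labelled anti-CTLA4 (SD, n = 2), which was -1.10 on the log2 scale (SE 0.23, limma adjusted p = 0.0173). Gbp5, an interferon-induced GTPase that promotes NLRP3 assembly, fell by 1.91, Aim2, a sensor of cytosolic DNA, by 1.09, and Txnip, a thioredoxin-binding protein, by 1.07. After scaling to the homeostatic list the list median was 0.25, with 2 genes higher and 1 lower, beside an all-gene median of 1.21. Gsdmd, Aim2 and Txnip were then at -0.16, -0.14 and -0.12, and none passed (limma adjusted p = 0.746, 0.759 and 0.802). Gbp5 was then at -0.97 and passed (limma adjusted p = 0.0335). As deposited, 2 genes were lower without depletion replicate 2 and likewise without depletion replicate 3.

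For labelled anti-CTLA4 against IgG, the inflammasome list had 10 genes higher and 1 lower, with a list median of 0.98. The shares of all tested genes were 9.29% higher and 28.8% lower, with a median of -0.31. Gsdmd averaged 72.5 ± 4.51 FPKM in the libraries labelled anti-CTLA4 and 24.8 ± 8.44 FPKM in IgG (SD, n = 2 each), which was 1.55 on the log2 scale (SE 0.25, limma adjusted p = 0.00995). Txnip was 1.28 higher and Aim2 1.23 higher, and Panx1, a membrane channel that releases ATP, was 1.34 lower. After scaling to the homeostatic list the list median was 0.029, with 0 genes higher and 1 lower, beside an all-gene median of -1.26. Gsdmd, Txnip and Aim2 were then at 0.60, 0.33 and 0.28, and none passed (limma adjusted p = 0.273, 0.551 and 0.6). Panx1 was then at -2.29 and passed (limma adjusted p = 9.19e-05). Without IgG replicate 2, 2 genes were higher and 0 lower.

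Of 27 genes of TNF processing and receptor signalling, 26 were tested, and under depletion 1 was higher and 6 were lower relative to labelled anti-CTLA4, with a list median of -0.38 that was 0.56 after scaling to the homeostatic list. The medians over all tested genes were 0.27 and 1.21, and as deposited 22.8% of them were higher and 6.59% lower. Casp8, the protease recruited by TNFR1 in cell death, fell by 0.76 and Birc3, a ubiquitin ligase of the TNF receptor complexes, by 0.81. After that scaling they were at 0.18 and 0.13, below the all-gene median, and neither passed (limma adjusted p = 0.695 and 0.783). Traf5, an adaptor of TNF receptor family members, fell by 1.09. After that scaling Traf5 was at -0.14 and did not pass (limma adjusted p = 0.744). In the libraries labelled anti-CTLA4 against IgG, 8 were higher and 2 lower, with a list median of 0.52 that was -0.43 after the same scaling. The medians over all tested genes were -0.31 and -1.26, and as deposited 9.29% of them were higher and 28.8% lower. Tnfaip3, which encodes the NF-kappaB brake A20, averaged 43.1 ± 1.21 FPKM in the libraries labelled anti-CTLA4 and 11.6 ± 5.76 FPKM in IgG (SD, n = 2 each), which was 1.88 on the log2 scale (SE 0.40, limma adjusted p = 0.0136). Zfp36l1, an mRNA-decay factor, was 1.59 higher, Birc3 1.26 higher and Casp8 0.98 higher. After scaling to the homeostatic list Tnfaip3, Zfp36l1, Birc3 and Casp8 were at 0.93, 0.63, 0.31 and 0.026. None of them passed then (limma adjusted p = 0.102, 0.261, 0.568 and 0.963).

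Of 21 genes known as inflammatory targets, 19 were tested, and under depletion 1 was higher and 1 was lower relative to labelled anti-CTLA4, with a list median of -0.23 that was 0.71 after scaling to the homeostatic list. All tested genes had medians of 0.27 and 1.21, and as deposited 22.8% of them were higher and 6.59% lower. Icam1, an adhesion molecule induced by IL-1 and TNF, fell to 37.0 ± 1.52 FPKM under depletion (SD, n = 3), against 89.1 ± 3.83 FPKM in the libraries labelled anti-CTLA4 (SD, n = 2), which was -1.25 on the log2 scale (SE 0.21, limma adjusted p = 0.0130). After scaling to the homeostatic list Icam1 was at -0.30, below the all-gene median of 1.21, and did not pass (limma adjusted p = 0.519). Sod2, the mitochondrial superoxide dismutase, rose by 0.60, but after median-of-ratios scaling it was at 0.30 and did not pass (limma adjusted p = 0.166). In the libraries labelled anti-CTLA4 against IgG, 2 were higher and 1 lower, with a list median of 0.85 that was -0.11 after scaling to the homeostatic list. All tested genes had medians of -0.31 and -1.26 there, and as deposited 9.29% of them were higher and 28.8% lower. Icam1 was 1.12 higher and Ccl2, a chemokine that draws monocytes, 2.20 higher, while Sod2 was 0.71 lower. After median-of-ratios scaling Sod2 was at -0.37 and did not pass (limma adjusted p = 0.124). After scaling to the homeostatic list Icam1 was at 0.17 and Ccl2 at 1.25, and neither passed (limma adjusted p = 0.757 and 0.067). For CD4 depletion + anti-CTLA4 against IgG, 0 genes of any of these 4 lists passed. Without labelled anti-CTLA4 replicate 2, 0 genes of the 4 lists passed in any comparison, and without IgG replicate 1 none passed for labelled anti-CTLA4 against IgG.

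Markers of other cells and of stress varied beside these values. The 19 monocyte and recruited macrophage markers summed to 4585, 373.2 and 1022 FPKM in the depletion libraries, 1402 and 648.8 FPKM in the libraries labelled anti-CTLA4, and 268.5 and 671.1 FPKM in IgG, and none was at 0 in any library. Ccr2, the chemokine receptor of inflammatory monocytes, was at 43.1 FPKM in depletion replicate 1 and at 1.02 to 2.24 FPKM in the other 6 libraries. The 14 neutrophil markers summed to 580.9, 63.14 and 92.4 FPKM in the depletion libraries, 103.4 and 184.5 FPKM in the libraries labelled anti-CTLA4, and 46.62 and 44.87 FPKM in IgG. S100a8, abundant in neutrophils and monocytes, was at 227 FPKM in depletion replicate 1. Retnlg, Mmp8 and Cxcr2 were at 33.3, 10.9 and 9.20 FPKM there, against 1.54, 0.605 and 0.235 FPKM or less elsewhere. S100a9, Mmp9 and G0s2 were also highest there. Csf3r, Camp, Ngp, Ltf, Mpo, Elane and Ly6g were instead highest in a library labelled anti-CTLA4. Ly6g, a neutrophil surface marker, was at 0.266 FPKM or less in every library and at 0 in 2 of them. Csf3r, a large part of the lower sums, was at 26.7 FPKM or more in every library. The library with the highest Il1b and Il1rn was also the one with the highest monocyte and neutrophil sums, and the part of such cells in those values was not tested.

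The 23 immediate early and dissociation stress genes summed to 2884, 2162 and 2160 FPKM in the depletion libraries, 3908 and 4524 FPKM in the libraries labelled anti-CTLA4, and 865.1 and 2648 FPKM in IgG. The highest sums were in the libraries with the highest Il1a and the lowest was in IgG replicate 1, and the part of this stress signal in the cytokine values was not tested. Of these 23 genes, 6 were lower under depletion relative to labelled anti-CTLA4, and 10 were higher in labelled anti-CTLA4 relative to IgG. The shares of all tested genes in those directions were 6.59% and 9.29%. The 22 homeostatic microglia markers summed to 7321, 14990 and 13760 FPKM in the depletion libraries, 18170 and 28040 FPKM in the libraries labelled anti-CTLA4, and 13680 and 11010 FPKM in IgG, with none at 0. The 17 tumour and oligodendrocyte precursor-like markers summed to 222.3, 755.7 and 586.9 FPKM in the depletion libraries, 118.1 and 47.2 FPKM in the libraries labelled anti-CTLA4, and 885.1 and 1217 FPKM in IgG, with none at 0. The libraries labelled anti-CTLA4 thus held the most homeostatic marker RNA and the least tumour marker RNA, and the part of that difference in the calls of Il1a and Tnfrsf1b was not tested.

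The 16 T and NK cell markers with a row summed to 5.52, 8.97 and 6.92 FPKM in the depletion libraries, 9.79 and 14.5 FPKM in the libraries labelled anti-CTLA4, and 7.11 and 5.91 FPKM in IgG. Cd3e, a chain of the T cell receptor complex, was at 1.07 FPKM or less in every library. The 17 endothelial and mural markers summed to 191.9, 106.3 and 77.03 FPKM in the depletion libraries, 437.7 and 247.9 FPKM in the libraries labelled anti-CTLA4, and 36.61 and 48.55 FPKM in IgG. The 10 border-associated macrophage markers summed to between 15.93 FPKM, in IgG replicate 1, and 206.7 FPKM, in depletion replicate 1, and none was at 0 in any library. The 2 lists thus had their highest sum in different libraries, the endothelial list in labelled anti-CTLA4 replicate 1 and the macrophage list in depletion replicate 1. The 4 Y-linked genes summed to 14.5, 12.12 and 9.53 FPKM in the depletion libraries, 2.64 and 0.514 FPKM in the libraries labelled anti-CTLA4, and 3.35 and 1.81 FPKM in IgG, without overlap between depletion and the others. Of these 4 genes, 3 were higher under depletion relative to labelled anti-CTLA4, as were 22.8% of all tested genes. The labels used here do not give the sex of the mice, and its part in the results was not tested.

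**Figure D4:**
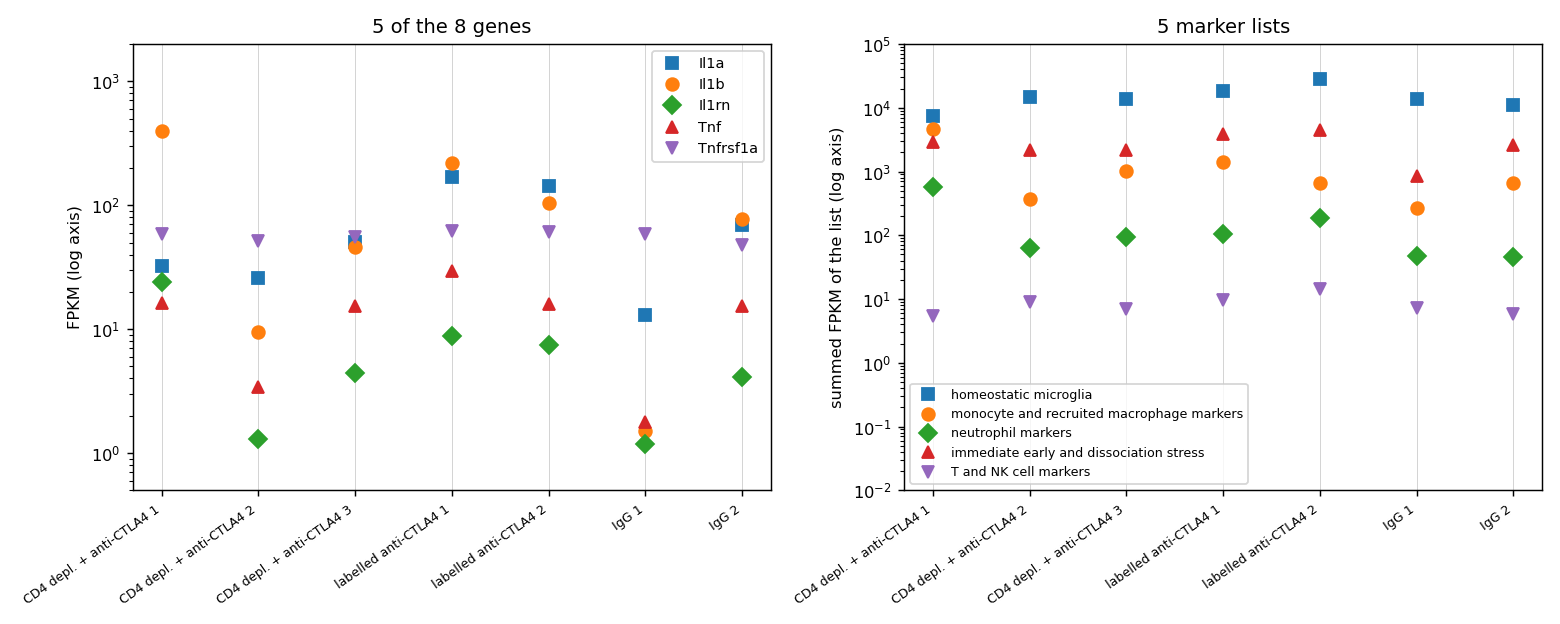
Left, level of 5 genes in FPKM, and right, summed FPKM of 5 marker lists, both on log axes and in the same order of libraries. Depletion replicate 1 has the highest Il1b (399 FPKM) and monocyte sum (4585 FPKM), and IgG replicate 1 has the lowest Il1a (12.9 FPKM) and stress sum (865.1 FPKM).

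Within the set, Il1b varied with Il1rn, Tnf and Nlrp3 (Pearson r = 0.931, 0.929 and 0.925 on the log2 scale over 7 libraries), less closely with Il1a (0.702), and inversely with Casp1 (-0.477). Il1a was closest to Tnf (0.852), and Tnfrsf1b was closest to Tnfrsf1a (0.794) and Nlrp3 (0.791). These values describe 7 libraries that share depth, group and cell makeup, and carry no test.

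By the same measure over 7623 genes with a mean of at least 5 FPKM, the pattern most like that of Il1a was Cd83, an activation marker of antigen-presenting cells (r = 0.989). Next for Il1a came Acaa1a (0.982), at 28.3 to 33.4 FPKM over the 7 libraries, and then Atf3, a stress-induced transcription factor (0.981). Cd83 was at 72.0, 62.4 and 119 FPKM in the depletion libraries, 376 and 226 FPKM in the libraries labelled anti-CTLA4, and 30.4 and 128 FPKM in IgG, so it shared the low IgG replicate 1 and the high labelled anti-CTLA4 pair with Il1a. Nearest to Il1b was Osm, the cytokine oncostatin M (r = 0.992), at 89.3, 5.79 and 17.1 FPKM in the depletion libraries, 74.9 and 37.0 FPKM in the libraries labelled anti-CTLA4, and 2.12 and 23.3 FPKM in IgG. Il1rn was followed most closely by B4galnt1, a ganglioside synthase (0.995), and Tnf by Hcar2, a receptor for hydroxybutyrate and niacin (0.982). Nlrp3 was followed by Irak4, the kinase that IL-1 receptors activate first (0.991), Casp1 by Sbds, a ribosome maturation factor (0.955), Tnfrsf1a by Ugcg, a glucosylceramide synthase (0.986), and Tnfrsf1b by Tmem109, a transmembrane protein (0.996).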

How the data were processed

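RNA had been sequenced from 7 libraries of sorted microglia in 3 groups. The submitters' processing notes name STAR, HOMER, DESeq2 and build mm10, with versions not given in the sources used here. The authors deposited, per the file headers, FPKM values counted over exons on both strands, 1 row per gene, with a transcript length column (another unit, used only for depth). Here log2(FPKM + 1) was fitted with limma 3.58.1 in R 4.3.3, with all 3 groups in 1 fit and a mean-variance trend. Genes that reached 1 FPKM in 2 or more libraries (13028) entered two-sided tests, Benjamini-Hochberg adjusted over all of them, with a threshold of 0.05. A pseudocount of 1 understates changes of low genes. Depth was read from values of up to 20 reads on transcripts of 200 to 800 nucleotides, of which 100% lay within 0.1 of a whole number; no count test was run. The fit was tested on simulated data. All 8 genes are named, with up to 4 genes per pathway list and comparison by smallest p among those that passed. By correlation, the nearest 3 genes are named for Il1a and only the nearest for each other gene. Il1r1 and marker genes beyond these were picked after their values were seen. 1 gene that this rule takes is not reported here. Members and lists were chosen with earlier results of these data known. Alternatives were 16: pseudocount, filters, scalings, groups in the fit, trend, replicate block and each library left out.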

Additional observations from a re-analysis of the deposited data

How the results depend on the processing

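Of 384 values of the 8 genes under 16 alternatives, 340 kept their direction and side of the threshold, 19 were weaker, 10 stronger and 15 changed sign. Most of these values belong to results that did not pass as reported, and several alternatives cannot move a fold change. For depletion against labelled anti-CTLA4, Il1a passed in 10 of 16 alternatives and Tnfrsf1b in 11. For labelled anti-CTLA4 against IgG, Il1a passed in 11 and Tnfrsf1b in 12. For depletion against labelled anti-CTLA4, 3827 genes passed, against 2477 with no filter and 9087 (9016 higher, 71 lower) after scaling to the homeostatic list; 2969 were higher and 858 lower as reported, 1455 and 1648 with median-of-ratios scaling, 1452 and 1460 with quantile normalization. Of the 8 genes, 2 passed, 1 with no filter and 1 after homeostatic scaling. Leaving out 1 library gave 0 to 5291 genes and 0 to 3 of the 8; it was 917 without depletion replicate 3 and 1386 without depletion replicate 2. For labelled anti-CTLA4 against IgG, 4957 passed (1210 higher, 3747 lower), 8251 after homeostatic scaling (65 higher, 8186 lower), with 2132 higher and 2050 lower by median-of-ratios and 1928 and 2081 by quantile. Of the 8 genes 2 passed, 1 with no filter, 4 with median-of-ratios scaling and 4 with only the 2 groups in the fit. Leaving out 1 library gave 0 to 6069 genes (675 without IgG replicate 2) and 0 to 4 of the 8 (4 without depletion replicate 1). For depletion against IgG, 1 gene passed after homeostatic scaling and 0 under every other alternative. Where a group kept 1 library, that library was assumed to vary like the other groups. The causes were not tested.

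With the replicate block, 0 genes and 0 of the 8 passed for depletion against labelled anti-CTLA4, and 2665 genes and 1 of the 8 (Tnfrsf1b) for labelled anti-CTLA4 against IgG. The deviations of same-numbered libraries from their group means had correlations of -0.205 to 0.123. Within the labelled anti-CTLA4 group, and within IgG, the deviations are mirror images by construction. The correlations therefore cannot decide whether libraries with the same number were paired. Under the block, Casp1 was 0.042 for depletion against labelled anti-CTLA4 and Il1a -0.070 for depletion against IgG.

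Signs also changed for depletion against labelled anti-CTLA4 after homeostatic scaling (Il1rn 0.51, Nlrp3 0.32, Casp1 0.66, Tnfrsf1a 0.79, Tnfrsf1b 0.15), without depletion replicate 2 (Il1rn 0.34) and without depletion replicate 3 (Casp1 0.042). With 1 library left out, Il1rn ranged there from -1.38 to 0.34 and Casp1 from -0.54 to 0.042. For labelled anti-CTLA4 against IgG, Tnfrsf1a was -0.76 after homeostatic scaling. For depletion against IgG, Il1a was -0.070 without depletion replicate 3, Il1a was -0.98, Il1b -0.44 and Tnf -0.62 without IgG replicate 1, and Tnfrsf1a was -0.10 without IgG replicate 2; with 1 library left out their highest values were 1.36, 4.54, 1.96 and 0.19 for Il1a, Il1b, Tnf and Tnfrsf1a.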

Other observations

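A few IL-1 and NF-kappaB related genes, named after their values were seen, were high in CD4 depletion + anti-CTLA4 replicate 1 alone. Il1r2, the decoy IL-1 receptor, was at 65.9, 0.744 and 1.30 FPKM in the depletion libraries, 1.17 and 0.873 FPKM in the libraries labelled anti-CTLA4, and 0.595 and 0.713 FPKM in IgG. Cxcl2, a neutrophil-attracting chemokine, was at 268, 0.212 and 1.10 FPKM in the depletion libraries, 2.66 and 0.855 FPKM in the libraries labelled anti-CTLA4, and was listed at 0 in 1 IgG library and at 1.00 FPKM in the other. Clec4e, the receptor Mincle, was at 23.7 FPKM in that depletion replicate and at 1.10 FPKM or less in the other 6 libraries. Il1r2 and Cxcl2 thus stood far above every other library there, as did Cxcr2, the neutrophil chemokine receptor, at 9.20 FPKM against 0.235 FPKM or less elsewhere.

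The chemokines Ccl3 and Ccl4, which attract monocytes and T cells, were highest in the libraries labelled anti-CTLA4 and not in that depletion replicate. Ccl3 was at 119, 42.2 and 273 FPKM in the depletion libraries, 766 and 447 FPKM in the libraries labelled anti-CTLA4, and 5.83 and 178 FPKM in IgG. Ccl4 was at 163, 78.7 and 405 FPKM in the depletion libraries, 1163 and 721 FPKM in the libraries labelled anti-CTLA4, and 7.33 and 295 FPKM in IgG. IgG replicate 1 was the lowest library for both, as it was for Il1a, Il1b and Tnf.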
